A study of Mus musculus with 12 samples.

Results

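Branched-chain amino acid catabolism is described here by 10 genes of the mouse 3T3-L1 line: Bcat2, Bckdha, Bckdhb, Dbt, Dld, Ivd, Mccc1, Mccc2, Auh and Hibch. They were chosen by gene name, and each name matched 1 row of the 39423 genes in the count and FPKM tables. 3T3-L1 cells are preadipocytes that become fat cells when induced with DMI, which combines insulin, a glucocorticoid (dexamethasone) and a phosphodiesterase inhibitor (3-isobutyl-1-methylxanthine). Poly(A) RNA was sequenced from cells transfected with a control siRNA (siCtrl) or an siRNA against PRMT1 (siPRMT1), a protein arginine methyltransferase, at day 1 (24 h) and day 3 (72 h) of DMI, with 3 libraries in each of the 4 groups. Both siRNAs were given to the same cell line and all 12 libraries came from induced cells, so no uninduced sample is among them. The study lists several siRNAs against PRMT1. Neither it nor the labels state which of them, or whether a mix, was used for these libraries. The question put to these data was how the genes of this pathway were expressed at the 2 stages of differentiation and how silencing of PRMT1 moved them.

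Leucine, isoleucine and valine are broken down inside mitochondria. A transaminase, BCAT2, removes the amino group, and the branched-chain keto acid dehydrogenase complex then commits the carbon skeleton to oxidation. This complex has an E1 part made of BCKDHA and BCKDHB, an E2 core encoded by Dbt, and an E3 subunit, DLD, that it shares with the pyruvate and 2-oxoglutarate dehydrogenase complexes and the glycine cleavage system. In the leucine branch IVD, the 2 subunits of methylcrotonyl-CoA carboxylase (MCCC1 and MCCC2) and AUH act one after the other, while HIBCH acts in the valine branch. Fat cells are known to gain the capacity to oxidise these amino acids as they mature, and the acetyl-CoA and propionyl-CoA formed feed lipid synthesis.

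In GRCm38 the genes lie on 7 chromosomes. Bcat2 (chr7:45569763-45589710, plus strand) and Bckdha (chr7:25629852-25658785, minus strand) share chromosome 7. Dbt (chr3:116513075-116549981, plus strand) and Mccc1 (chr3:35956292-36000678, minus strand) share chromosome 3, and Auh (chr13:52835107-52929705, minus strand) and Mccc2 (chr13:99948532-100015639, minus strand) share chromosome 13. The others are Hibch (chr1:52845038-52920986, plus strand), Ivd (chr2:118861959-118882907, plus strand), Bckdhb (chr9:83925111-84124240, plus strand) and Dld (chr12:31331562-31351471, minus strand). Counts were taken over their exons, and 2 of the genes have exon bases in common with a gene on the other strand. Bcat2 shares 57 of 3097 exon bases with 0610005C13Rik and Mccc1 shares 198 of 3990 with Mccc1os, and those neighbours had 104 and 51 counts in all 12 libraries together. Whether the counting used strand was not stated, so reads on these bases cannot be told apart.

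The libraries held 15116462 to 42357137 counts on genes. Prmt1 itself measured 82.9, 83.4 and 91.3 FPKM (counts scaled to gene length and to the library's total) in the siCtrl libraries of day 1 and 43.8, 38.6 and 41.4 FPKM in the siPRMT1 libraries. At day 3 it measured 111, 120 and 140 FPKM against 62.0, 71.7 and 68.5 FPKM, so the 2 siRNAs did not overlap at either day, and on the log2 scale Prmt1 fell by 1.106 ± 0.076 at day 1 (SE, edgeR adjusted p = 0.000985) and by 0.88 ± 0.09 at day 3 (adjusted p = 1.22e-05). Adipocyte markers marked the course: the summed level of 7 of them ran from 148 to 153 FPKM in siCtrl cells of day 1 and from 2695 to 2910 FPKM at day 3, and in siPRMT1 cells from 111 to 126 and from 2104 to 2288 FPKM. Markers of other cell types were low but not all absent. The leukocyte list summed to 1.76 to 2.86 FPKM over the libraries, with Ptprc at 0 counts in all groups, and the endothelial list to 0.12 to 0.88 FPKM. The muscle list was at 0.08 to 0.15 FPKM at day 1 and 4 to 6.8 FPKM at day 3, nearly all from Acta1, with Myod1 at 0 counts in all groups, and the epithelial list went from 0.12 FPKM or less to between 6.36 and 11.4 FPKM, mostly Krt8. A count of 0 allows up to 3 counts in a library. The third siCtrl library of day 1 stood apart from the other 2. Its chi-square per gene was 50.6 and 30.8 against them, beside 5.30 between them. Its effect is given beside several of the results it moves. The study describes its data in general as coming from independent experiments, but the labels do not tie the libraries of a group to separate cultures, so the p-values measure the spread between these libraries, which may be technical.

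Dld was the most abundant of the 10 genes in every group and the order of the others moved between the days. Levels are compared on FPKM, which is per length of gene. That length counts every exon base listed for a gene, whether or not these cells used it. The order between genes depends on it. In siCtrl cells of day 1 the order of the mean FPKM was Dld (72.0 ± 11.1, SD, n = 3), Ivd (29.5 ± 3.74), Hibch (22.9 ± 3.78), Bckdha (20.2 ± 4.18), Bcat2 (17.5 ± 1.64), Bckdhb (14.5 ± 1.58), Mccc2 (10.7 ± 1.40), Mccc1 (6.96 ± 0.303), Auh (6.45 ± 0.784) and Dbt (3.91 ± 0.356). Hibch and Bckdha overlapped in this order, as did Bckdha and Bcat2, and Mccc1 and Auh, while every other pair of neighbours was apart in all 3 libraries. In siCtrl cells of day 3 the order was Dld (144.8 ± 11.4), Bcat2 (75.4 ± 5.4), Ivd (63.5 ± 3.46), Bckdhb (52.2 ± 0.554), Hibch (43.8 ± 3.88), Bckdha (40.4 ± 2.98), Mccc2 (20.9 ± 1.68), Dbt (19.5 ± 1.01), Mccc1 (16.5 ± 0.684) and Auh (4.66 ± 0.382). Here Hibch and Bckdha overlapped, as did Mccc2 and Dbt, and the other neighbours did not. Bcat2 thus moved up from place 5 at day 1 to place 2 at day 3, and Auh down from place 9 to the last. In siPRMT1 cells the first 7 places were held by the same genes as in siCtrl cells, at day 1 and again at day 3.

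**Figure D1:**
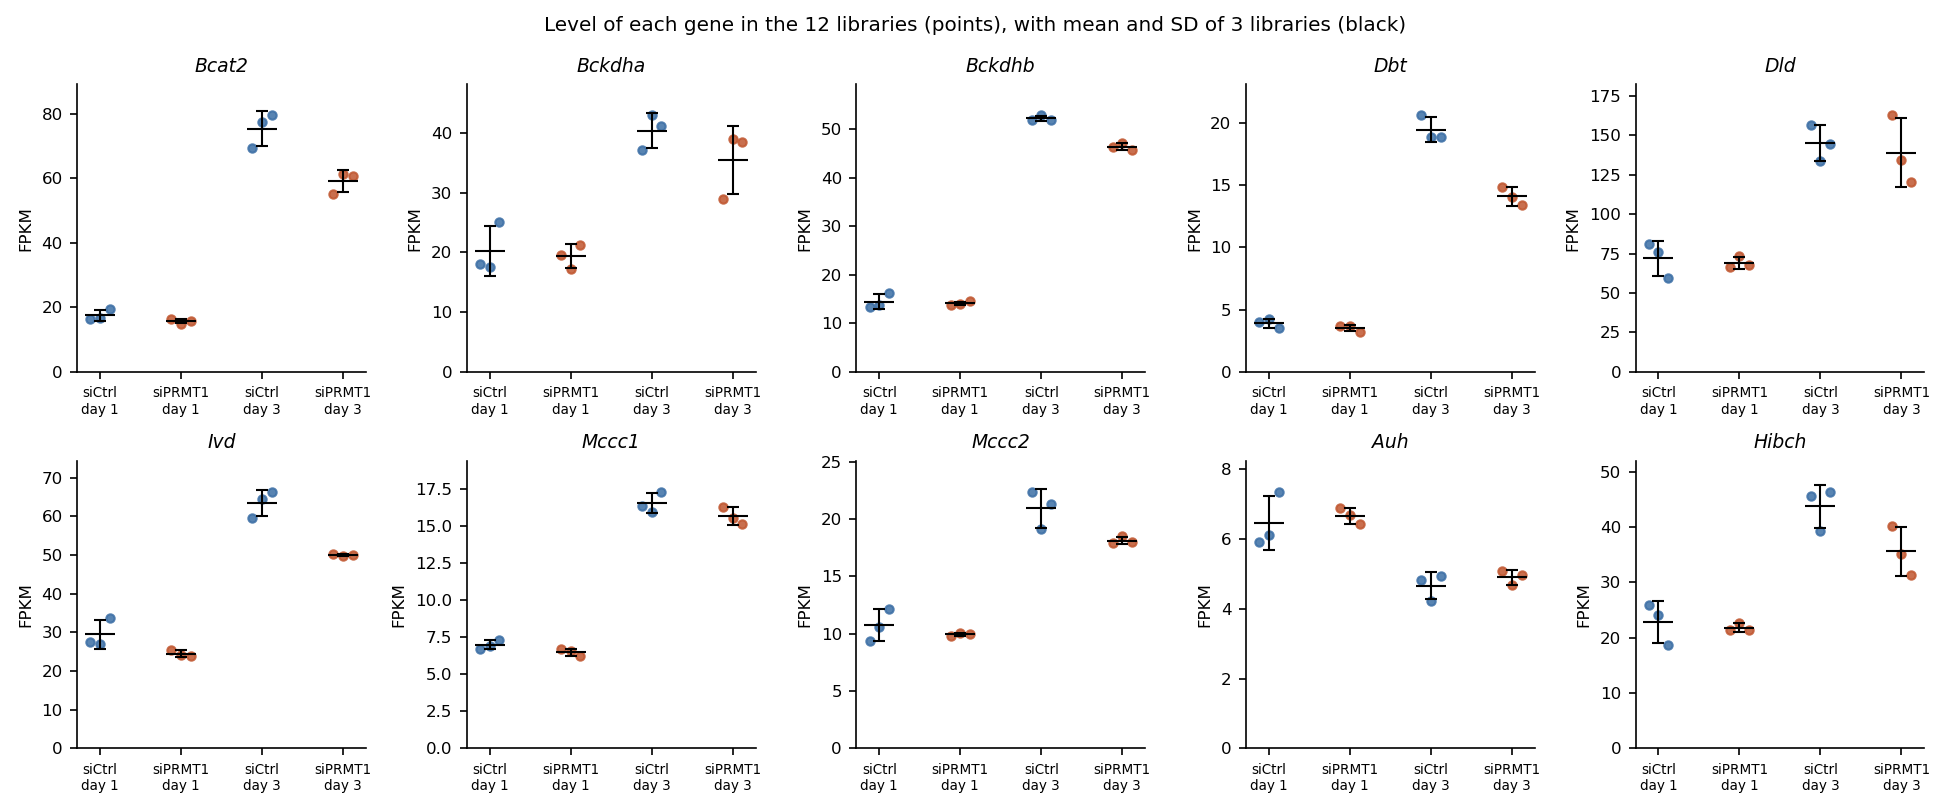
Deposited FPKM of the 10 genes in each of the 12 libraries (points; siCtrl in blue, siPRMT1 in orange), with the mean and SD of the 3 libraries of a group in black and each vertical axis starting at 0. In 9 panels the day 3 points lie above all day 1 points of the same siRNA, and in the Auh panel they lie below them. In siCtrl cells 5099 of the 13829 genes tested lay above in this way and 3789 below. In siPRMT1 cells these were 4894 and 4529 of 14224.

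Between day 1 and day 3 of DMI, 9 of the 10 genes rose in siCtrl cells and Auh fell. Dbt, Bcat2 and Bckdhb had the largest log2 fold changes (2.25 ± 0.10, 2.04 ± 0.10 and 1.78 ± 0.10, SE, 3 against 3 libraries), which are 4.74-fold, 4.11-fold and 3.44-fold, and the other 6 rose 1.82-fold to 2.26-fold. To be called, a gene had to reach an adjusted p under 0.05 in edgeR's quasi-likelihood test together with a log2 fold change over 0.5 in either direction. The same rule called 22.7% of the 13829 genes tested higher and 20.4% lower at day 3. Of the 13829, 5099 had the FPKM of all day 3 libraries above all day 1 libraries, and 3789 had them below. The median log2 fold change was 0.99 over the 10 genes and near 0 over all genes tested.

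Bcat2, which carries out the first step, measured 16.4, 16.7 and 19.4 FPKM in the siCtrl libraries of day 1 and 69.3, 77.3 and 79.5 FPKM in those of day 3. The lowest day 3 library was above the highest day 1 library by a wide margin (adjusted p = 1.65e-07). Within the keto acid dehydrogenase complex the subunits did not move by the same factor. The E2 core gene Dbt measured 3.98, 4.22 and 3.52 FPKM at day 1 and 20.6, 18.9 and 18.9 FPKM at day 3 (adjusted p = 9.59e-08). The E1 beta gene Bckdhb went from 13.3, 13.9 and 16.3 FPKM to 52.0, 52.9 and 51.8 FPKM (adjusted p = 3.81e-07). Neither gene overlapped between the days, and the day 3 libraries of Bckdhb lay within 1.1 FPKM of each other.
The E1 alpha gene Bckdha rose by less, from 18.0, 17.5 and 25.0 FPKM to 37.1, 42.9 and 41.1 FPKM, with a log2 fold change of 0.93 ± 0.14 (SE, adjusted p = 0.000319). Dld, the E3 subunit, rose from 80.8, 75.8 and 59.5 FPKM to 156.5, 133.8 and 144.3 FPKM, with a log2 fold change of 0.94 ± 0.11 (adjusted p = 5.92e-05). In both genes the groups were apart, but the third siCtrl library of day 1 was the highest for Bckdha and the lowest for Dld.

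In the leucine branch Ivd, which oxidises isovaleryl-CoA, went from 27.5, 27.1 and 33.8 FPKM to 59.7, 64.5 and 66.4 FPKM (log2 fold change 1.04 ± 0.11, adjusted p = 1.81e-05). Mccc1, the biotin-carrying subunit of the carboxylase, went from 6.72, 6.86 and 7.30 FPKM to 16.3, 16.0 and 17.3 FPKM (1.18 ± 0.09, adjusted p = 2.66e-06). Its partner Mccc2 went from 9.40, 10.6 and 12.2 FPKM to 22.4, 19.1 and 21.4 FPKM (0.90 ± 0.12, adjusted p = 0.000117). None of these 3 genes overlapped between the days.
Auh, which hydrates methylglutaconyl-CoA in the same branch, was the exception. It measured 5.90, 6.11 and 7.35 FPKM at day 1 and 4.82, 4.22 and 4.93 FPKM at day 3 (log2 fold change -0.54 ± 0.12, adjusted p = 0.00349). All day 3 libraries were below all day 1 libraries, yet the size of the fall rested partly on the third siCtrl library of day 1: without it the log2 fold change was -0.43 (adjusted p = 0.000933), which is under the fold threshold. In the valine branch Hibch rose from 25.9, 24.1 and 18.6 FPKM to 45.6, 39.3 and 46.4 FPKM (0.86 ± 0.13, adjusted p = 0.000223). HIBCH hydrolyses the CoA thioester formed from valine, and AUH is also known as a protein that binds AU-rich elements of RNA.

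The same course was seen in siPRMT1 cells, where the 9 genes were called higher at day 3 and the background was 19.0% of 14224 genes. Dbt rose by 1.98 ± 0.09 on the log2 scale, Bcat2 by 1.90 ± 0.06 and Bckdhb by 1.71 ± 0.06, and these were again the 3 largest. Auh measured 6.88, 6.69 and 6.43 FPKM at day 1 and 5.07, 4.67 and 4.96 FPKM at day 3, and its log2 fold change of -0.46 ± 0.08 passed the test (adjusted p = 0.000143) without reaching the fold threshold. Hibch had the smallest rise in both, 0.86 in siCtrl and 0.69 ± 0.09 in siPRMT1 cells.

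**Figure D2:**
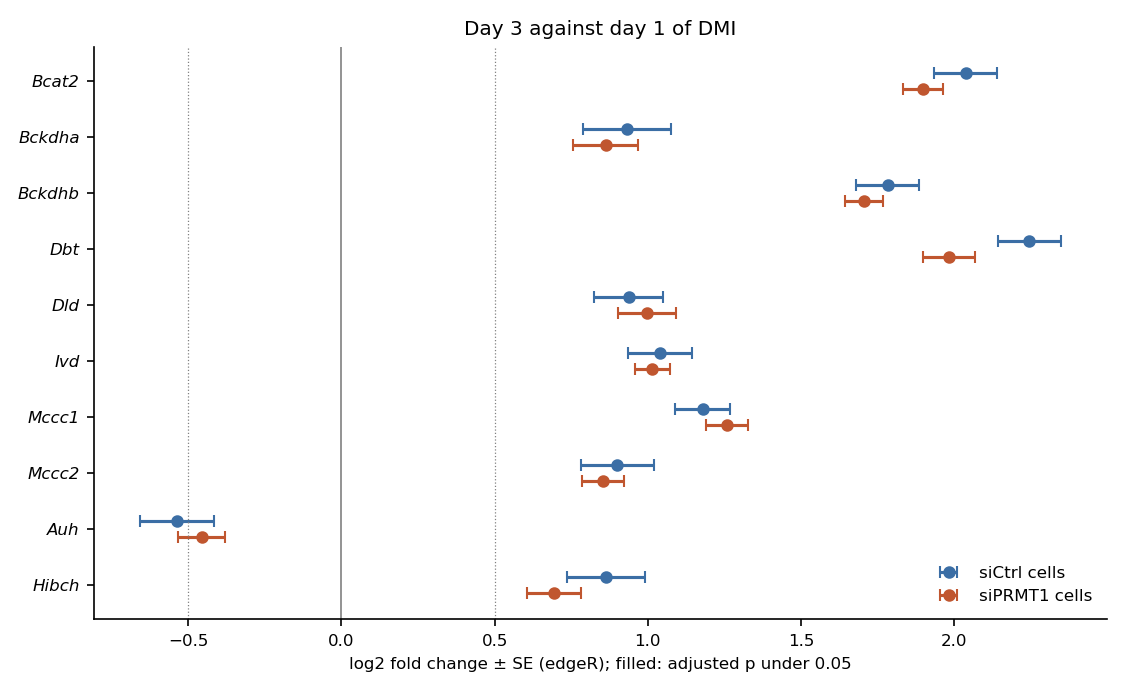
Log2 fold change of day 3 against day 1 of DMI with its SE (edgeR, 3 against 3 libraries) for the 10 genes, in siCtrl cells (blue) and siPRMT1 cells (orange), with dotted lines at the fold threshold of 0.5. Dbt, Bcat2 and Bckdhb form the far right in both, from 1.71 to 2.25, Auh is the one gene left of 0, and every point is filled, which marks an adjusted p under 0.05.

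The promoter sequences of genes that moved together in the course, and of the one that went the other way, are shown for context. RefSeq promoter windows of GRCm38.p6, 250 bases before to 50 bases after a transcript start, were matched by symbol for 9 of the 10 genes, in 11 windows. Dbt had none. Both windows of Bcat2 and the Bckdhb window at chr9:83948531-83948830 start inside the gene as the count table lists it. The stretches printed below for Bckdhb and Auh also reach a short way into the listed gene. The 250 bases upstream of the start are printed below, 5′ to 3′ on the strand of the gene, for Bckdhb (chr9:83924887-83925136, plus strand), which rose most of the genes with a window before the gene, Mccc1 (chr3:36000679-36000928, minus strand), whose profile was nearest to the mean of the 10, and Auh (chr13:52929678-52929927, minus strand), which fell. Capitals mark CCAAT or its other strand ATTGG, and in Bckdhb also the nuclear receptor element AGGTCA.
Bckdhb: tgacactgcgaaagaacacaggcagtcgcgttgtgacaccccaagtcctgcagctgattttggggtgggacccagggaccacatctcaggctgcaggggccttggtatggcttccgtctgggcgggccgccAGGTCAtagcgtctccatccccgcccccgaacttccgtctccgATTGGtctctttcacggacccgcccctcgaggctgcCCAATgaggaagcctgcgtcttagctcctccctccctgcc
Mccc1: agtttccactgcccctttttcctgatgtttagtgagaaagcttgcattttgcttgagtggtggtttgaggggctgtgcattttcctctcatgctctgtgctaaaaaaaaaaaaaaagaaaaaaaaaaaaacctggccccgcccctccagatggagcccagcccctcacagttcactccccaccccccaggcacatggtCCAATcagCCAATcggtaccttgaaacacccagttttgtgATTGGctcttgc
Auh: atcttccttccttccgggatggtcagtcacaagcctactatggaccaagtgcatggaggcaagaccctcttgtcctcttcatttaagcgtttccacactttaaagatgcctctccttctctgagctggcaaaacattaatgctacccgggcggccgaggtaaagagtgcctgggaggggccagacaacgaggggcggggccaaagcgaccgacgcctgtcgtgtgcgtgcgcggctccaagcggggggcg
CCAAT was found on either strand in 6 of the 11 windows and in 37.4% of all 32851 windows. The 6 windows belong to 5 of the 9 genes (Bckdhb, Dld, Ivd, Mccc1 and Mccc2). AGGTCA or TGACCT was found in 1 of the 11 windows, of Bckdhb, and in 16.3% of all windows. The C/EBP letters TTGCNNAA or TTNNGCAA were found in 1 of the 11, of Dld (10.8% of all windows). The CREB letters TGACGTCA (1.79% of all windows), TGATGNAA or TTNCATCA, named for C/EBP with ATF (3.97%), TCAAGGTCA or TGACCTTGA, named for estrogen-related receptors (0.423%), and DR1, a pair of AGGTCA 1 base apart bound by PPARG with RXR (0.0396%), were in none of the 11 windows. The longer letters that hold AGGTCA overlap with it. These are letter matches and describe the window only. GC content ran from 37.3%, in the Bckdhb window inside the gene, to 66.3% over the 11 windows, beside a median of 52.7% over all windows.

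After silencing of PRMT1 the log2 fold changes of the 10 genes were small next to those of the course. At day 1, 0 of the 10 passed edgeR's test at any fold, and 2 (Bcat2 and Ivd) had an unadjusted p under 0.05, beside 24.6% of all genes tested. DESeq2 passed 1, Ivd. Over all 13689 genes tested at day 1, 1.61% were called lower and 1.95% higher, and 4.38% passed the test with a lower level at any fold. The 10 log2 fold changes ran from -0.31 to just above 0 with a median of -0.14, beside a median of 0.01 over all genes tested. In 3 of the 10 genes (Bcat2, Ivd and Mccc1) all siPRMT1 libraries were below all siCtrl libraries, as in 11.9% of all genes tested.
Ivd, the gene with the lowest value, measured 27.5, 27.1 and 33.8 FPKM in siCtrl and 25.5, 24.2 and 23.9 FPKM in siPRMT1 cells (log2 fold change -0.31 ± 0.09, adjusted p = 0.081). Bcat2 measured 16.4, 16.7 and 19.4 FPKM against 16.4, 14.9 and 15.8 FPKM (-0.20 ± 0.09, adjusted p = 0.185), so its highest siPRMT1 library and its lowest siCtrl library were nearly level. In both genes the third siCtrl library was the highest of the 6. Without that library Ivd (-0.21, adjusted p = 0.015), Dld (-0.24, adjusted p = 0.00994) and Hibch (-0.26, adjusted p = 0.0124) passed the test, none at a log2 fold change over 0.5, and the value of Bckdha went from -0.11 to 0.06. Bcat2 then gave -0.13 (adjusted p = 0.136), Mccc2 -0.06 in place of -0.15, Bckdhb -0.0021 in place of -0.09 and Auh 0.09 in place of 0.0002, none of which passed either way.

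At day 3, 4 of the 10 genes were lower in siPRMT1 cells: Dbt, Bcat2, Ivd and Hibch. Their log2 fold changes were -0.47 ± 0.08, -0.36 ± 0.08, -0.35 ± 0.07 and -0.31 ± 0.09 (SE), which are changes of -27.8%, -22.0%, -21.7% and -19.1%. The rule with a fold threshold called 0 of the 10, beside 3.80% of 14039 genes called lower, and at any fold 4 of 10 passed with a lower level, beside 8.94% of all genes tested. None passed with a higher level. The median over the 10 genes was -0.20 and that over all genes tested 0.01.
Dbt measured 20.6, 18.9 and 18.9 FPKM in siCtrl and 14.9, 14.04 and 13.4 FPKM in siPRMT1 cells (adjusted p = 0.000632). Bcat2 measured 69.3, 77.3 and 79.5 FPKM against 55.2, 61.4 and 60.6 FPKM (adjusted p = 0.00421). Ivd measured 59.7, 64.5 and 66.4 FPKM against 50.26, 49.66 and 50.02 FPKM (adjusted p = 0.0027). In these 3 genes every siPRMT1 library was below every siCtrl library, and each passed the test when any one of the 6 libraries was left out, with adjusted p up to 0.00699, 0.0262 and 0.0235.
Hibch overlapped, with 45.6, 39.3 and 46.4 FPKM in siCtrl and 40.2, 35.1 and 31.4 FPKM in siPRMT1 cells (adjusted p = 0.035). It passed in 2 of the 6 tests that left out a library (siCtrl replicate 2 or siPRMT1 replicate 1), and its adjusted p in the others reached 0.125.

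The other 6 genes did not pass at day 3. Bckdhb measured 52.0, 52.9 and 51.8 FPKM in siCtrl and 46.3, 47.2 and 45.7 FPKM in siPRMT1 cells, with no overlap and a log2 fold change of -0.18 ± 0.07 (adjusted p = 0.0811). Mccc2 likewise did not overlap, at 22.4, 19.1 and 21.4 FPKM against 17.9, 18.5 and 18.0 FPKM (-0.22 ± 0.08, adjusted p = 0.0745). With these, the siPRMT1 libraries were all below the siCtrl libraries in 5 of the 10 genes, beside 17.5% of all genes tested. Bckdha gave -0.19 ± 0.10 (adjusted p = 0.213), and its first siPRMT1 library, at 28.9 FPKM, was well below the other two at 39.0 and 38.5 FPKM.
Mccc1 gave -0.09 ± 0.07 (adjusted p = 0.443), Dld -0.06 ± 0.10 (adjusted p = 0.694) and Auh 0.06 ± 0.09 (adjusted p = 0.682), all with overlapping groups. Dld spread most, from 120 to 163 FPKM among the siPRMT1 libraries. Summed over the 10 genes, the level was 204.5 ± 2.87 FPKM (SD, n = 3) in siCtrl and 191.2 ± 1.66 FPKM in siPRMT1 cells at day 1, and 481.7 ± 11.8 against 418.2 ± 19.8 FPKM at day 3, with no overlap at either day.

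**Figure D3:**
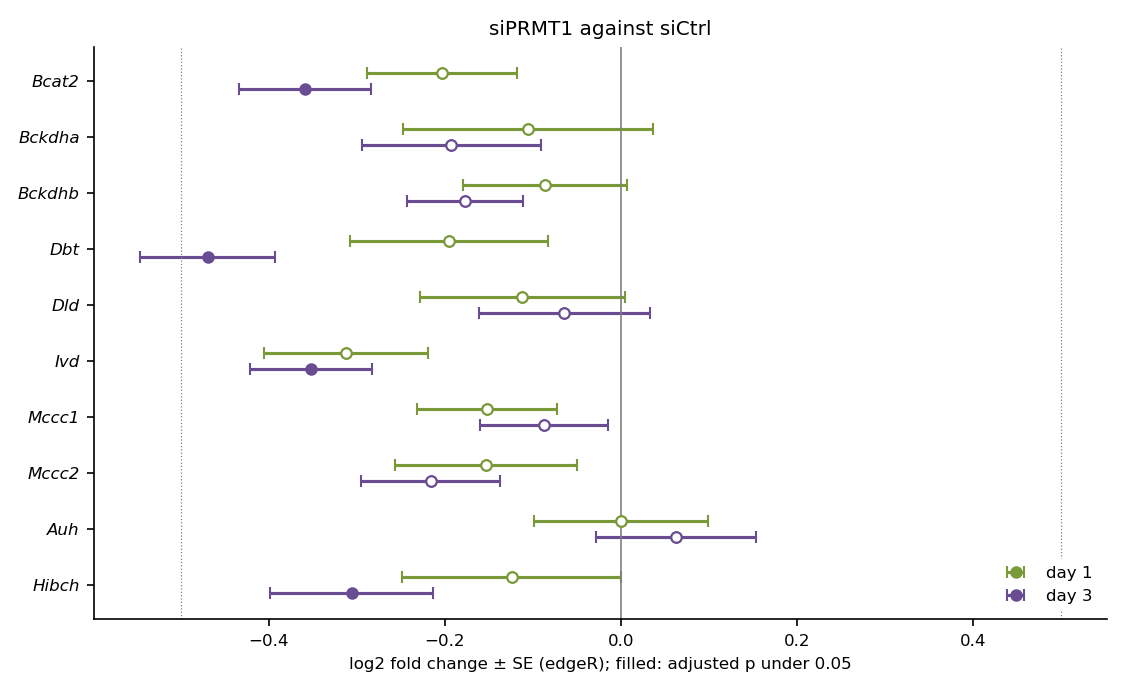
Log2 fold change of siPRMT1 against siCtrl cells with its SE (edgeR, 3 against 3 libraries) for the 10 genes at day 1 (green) and day 3 (purple), with dotted lines at the fold threshold of 0.5. Filled points have an adjusted p under 0.05 and are the day 3 values of Bcat2, Dbt, Ivd and Hibch, and no point lies beyond a dotted line.

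That 4 genes passed at day 3 and 0 at day 1 was set against a test of the difference itself. The knockdown effect of day 3 less that of day 1, tested over all 12 libraries, was called in 0 of the 10 genes, with 0 at an unadjusted p under 0.05 in edgeR, beside 8.24% of 14612 genes called in either direction and 27.3% at an unadjusted p under 0.05. The values ran from -0.26 ± 0.13 for Dbt (SE, adjusted p = 0.206) to 0.09 ± 0.10 for Mccc1, with Hibch at -0.16 ± 0.16, Bcat2 at -0.13 ± 0.12 and Ivd at -0.02 ± 0.12. Their order rested on the third siCtrl library of day 1. Without it Bckdha gave -0.27, Bcat2 -0.24, Dbt -0.22, Bckdhb -0.19, Mccc2 -0.18, Ivd -0.16 and Hibch -0.07, with adjusted p of 0.0865 or more over the 10 genes. A difference of the effects between the days was therefore not shown for any of the 10 genes, with standard errors of 0.10 to 0.20 on the log2 scale.
Adipocyte markers moved in the same direction at both days. Of 7, 6 were tested at day 1 and 7 at day 3, with 3 called lower at each. Over all genes tested 1.61% and 3.80% were called lower. Plin1, which coats lipid droplets, gave -0.71 ± 0.08 at day 3 (adjusted p = 1.82e-05), Adipoq -0.69 ± 0.08 (adjusted p = 2.65e-05) and Cidec -0.54 ± 0.07 (adjusted p = 0.000167). Cebpa, Pparg, Lpl and Fabp4 were not called at day 3. Even so, every siPRMT1 library was below every siCtrl library for Cebpa, Pparg and Lpl, as in 17.5% of all genes tested. Cebpa measured 52.8 to 56.4 FPKM in siPRMT1 against 70.5 to 78.6 FPKM in siCtrl cells. Pparg measured 89.3 to 93.1 against 110 to 115 FPKM, and Lpl 428 to 461 against 605 to 629 FPKM. Fabp4 overlapped there, with 799 to 997 FPKM in siPRMT1 and 899 to 1030 FPKM in siCtrl cells. Of 6 preadipocyte or fibroblast markers, Pdgfra (0.60 ± 0.06) and Ly6a (0.96 ± 0.10) were called higher at day 3, beside 399 of 14039 genes tested. No other was called in either direction at day 3, and 0 of the 6 were called at day 1. At day 1 the mean of both was lower in siPRMT1 than in siCtrl cells (Pdgfra 58.7 against 66.7 FPKM, Ly6a 370 against 416 FPKM). Of the low markers, Krt8 (-0.70 ± 0.10), Krt18 (-1.29 ± 0.20) and the endothelial Cdh5 (-1.20 ± 0.36), the last at 0.253 FPKM or less on average, were called lower at day 3. In these bulk libraries fewer cells of a type and less RNA per cell cannot be told apart, and the part of these markers in the lower level of the 4 genes was not tested.

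Other genes of the pathway and of its control were looked at from a list of 20. In the course of siCtrl cells 9 of them were called higher and 1 lower, and 14 and 1 passed at any fold, beside 30.2% and 28.7% of all genes tested, with a median log2 fold change of 0.49. The 3 with the largest change were Klf15, a transcription factor that induces genes of this pathway in other tissues, at 5.68 ± 0.21, Aldh6a1, a dehydrogenase of the valine branch, at 1.73 ± 0.08, and Pccb, a propionyl-CoA carboxylase subunit, at 1.33 ± 0.12. After the knockdown 19 were tested at day 1, with 1 called higher and 0 lower, and 20 at day 3, with 0 higher and 1 lower. At any fold 3 passed with a lower level at day 1 and 6 at day 3, beside 4.38% and 8.94% of all genes tested. The medians were -0.14 and -0.15.
Bcat1, the cytosolic counterpart of Bcat2, was the gene called at day 1. It measured 4.8, 4.6 and 5.08 FPKM in siCtrl and 10.3, 10.6 and 11.5 FPKM in siPRMT1 cells, a log2 fold change of 1.114 ± 0.073 (SE, adjusted p = 0.000976). At day 3 it measured 2.63, 3.09 and 2.57 FPKM against 3.04, 3.37 and 3.50 FPKM (0.26 ± 0.10, adjusted p = 0.0814), with an overlap. It also fell between the days, by 0.88 ± 0.11 on the log2 scale in siCtrl and by 1.72 ± 0.07 in siPRMT1 cells. A second Bcat1 row, on another sequence of the assembly, held 42.5% of the counts of the pair, so the level of Bcat1 is uncertain, and with both rows summed the day 1 value was 1.02 ± 0.07 (adjusted p = 0.000991) and the day 3 value 0.30 ± 0.08 (adjusted p = 0.021).

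Klf15 was called lower at day 3. It measured 2.81, 2.90 and 3.02 FPKM in siCtrl and 1.39, 1.10 and 1.16 FPKM in siPRMT1 cells, a log2 fold change of -1.27 ± 0.11 (adjusted p = 4.23e-06), with every siPRMT1 library below every siCtrl library. At day 1 it held 4 to 16 counts in a library and was not tested. Aldh6a1 measured 15.9, 16.4 and 15.2 FPKM against 11.3, 12.1 and 11.5 FPKM at day 1 (-0.50 ± 0.07, adjusted p = 0.00868) and 59.8, 52.6 and 52.8 FPKM against 41.0, 38.8 and 38.0 FPKM at day 3 (-0.49 ± 0.07, adjusted p = 0.000255). It passed the test at both days just under the fold threshold, and it was called in 8 of 14 alternatives at day 1 and 5 of 14 at day 3. At day 1 it no longer passed without siCtrl replicate 2 (adjusted p = 0.0548), siPRMT1 replicate 1 (adjusted p = 0.0611) or siPRMT1 replicate 3 (adjusted p = 0.0716).
The kinase and the phosphatase that switch the keto acid dehydrogenase off and on both passed at day 3 below the fold threshold. Bckdk measured 31.0, 33.9 and 31.3 FPKM against 23.9, 27.4 and 26.6 FPKM (-0.31 ± 0.08, adjusted p = 0.0111), and Ppm1k 1.55, 1.33 and 1.69 FPKM against 1.2, 1.13 and 1.01 FPKM (-0.47 ± 0.12, adjusted p = 0.0141). Both were without overlap at day 3, and neither passed at day 1 (adjusted p = 0.861 and 0.794). At day 3 Bckdk no longer passed without siCtrl replicate 2 (adjusted p = 0.0639) nor Ppm1k without siCtrl replicate 3 (adjusted p = 0.0725).

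**Figure D4:**
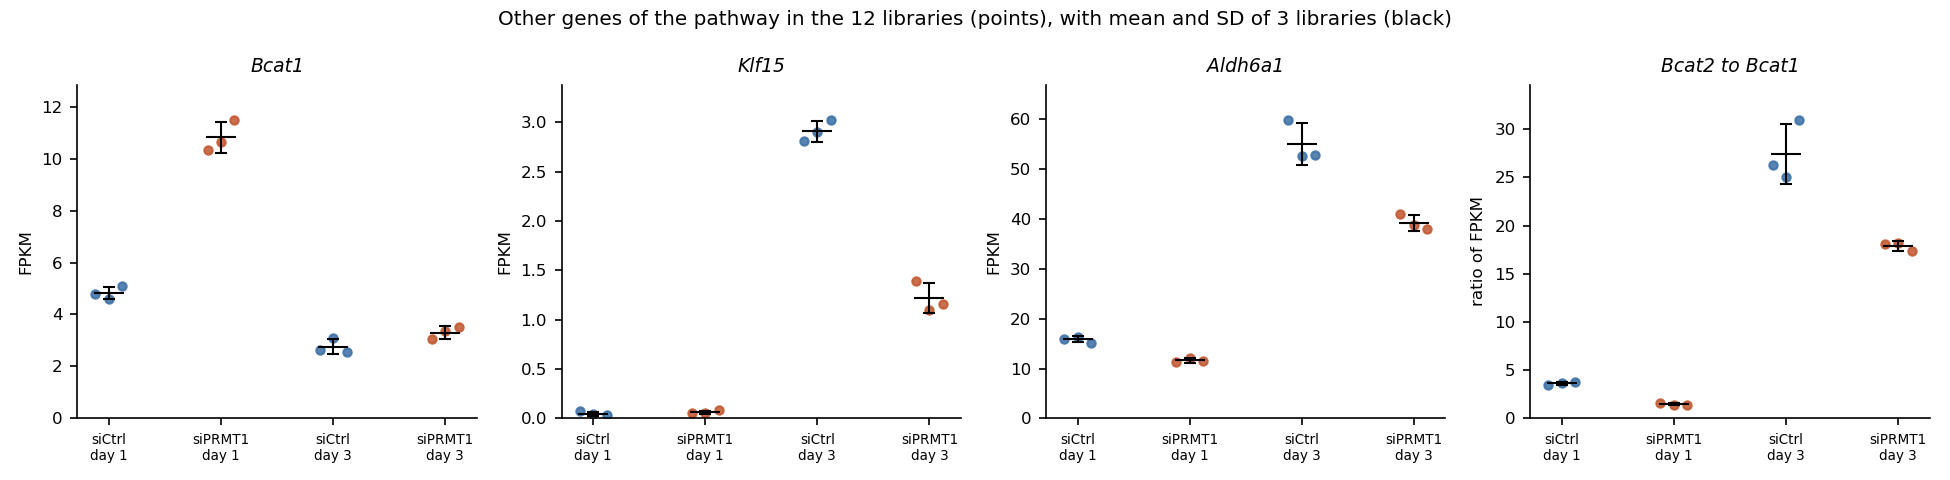
Deposited FPKM of Bcat1, Klf15 and Aldh6a1 and the ratio of the FPKM of Bcat2 to that of Bcat1 in each of the 12 libraries (points; siCtrl in blue, siPRMT1 in orange), with the mean and SD of 3 libraries in black and each vertical axis starting at 0. Bcat1 is highest in siPRMT1 cells of day 1, Klf15 is near 0 at day 1, and the ratio is lower in siPRMT1 than in siCtrl cells at both days.

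Since Dld serves several complexes, 9 subunits of the others were set beside it. In siCtrl cells 7 of the 9 were called higher at day 3 and 1 lower, beside 22.7% and 20.4% of all genes tested. Their median log2 fold change was 0.80, where Dld gave 0.94. Pdhx (1.59 ± 0.19) and Pdhb (1.30 ± 0.08), both of pyruvate dehydrogenase, had the largest rise, and Gldc of the glycine cleavage system fell by 0.94 ± 0.15 on the log2 scale. After the knockdown 0 of the 9 were called at day 1 and 1, Pdhx, was called lower at day 3 (-0.56 ± 0.17, adjusted p = 0.0358). Another row, on a second sequence of the assembly, held 89.6% of the counts of Pdhx, and with both rows summed its value was -0.30 ± 0.08 (adjusted p = 0.0235). The call was lost in 8 of 14 alternatives, DESeq2 among them (adjusted p = 0.0816), with adjusted p up to 0.122. The median at day 3 was -0.08, beside -0.06 for Dld. Of all genes tested at day 3, 8.94% passed with a lower level at any fold. Only Pdhx and Ogdh (-0.26 ± 0.08, adjusted p = 0.0291) passed at any fold, both with a lower level, and with a library left out Ogdh passed in 2 of 6 fits, without siCtrl replicate 1 or siPRMT1 replicate 3.

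The proportions of partner genes were read as the ratio of their FPKM within a library, which does not depend on the scaling of the library. Bckdha to Bckdhb stood at 1.35, 1.26 and 1.54 in siCtrl cells of day 1 and at 0.713, 0.812 and 0.793 at day 3, so the beta gene stood above the alpha gene in all 3 day 3 libraries and below it in all 3 of day 1. Dbt to Bckdha stood at 0.201 ± 0.053 (SD, n = 3) at day 1 and at 0.485 ± 0.062 at day 3, and Mccc1 to Mccc2 at 0.654 ± 0.058 and 0.792 ± 0.055. Bcat2 to Bcat1 stood at 3.42, 3.62 and 3.82 at day 1 and at 26.3, 25.0 and 30.9 at day 3. These 4 ratios did not overlap between the days, with differences of -0.84, 1.30, 0.28 and 2.92 on the log2 scale, each with a two-sided exact permutation p of 0.1, which is the smallest that 3 against 3 libraries can give (0.214 after adjustment over 15 tests). The third siCtrl library of day 1 was the lowest for Dbt to Bckdha, at 0.141 against 0.221 and 0.241. Without it the log2 difference was 1.06 for Dbt to Bckdha and 0.21 for Mccc1 to Mccc2.
Between the siRNAs, Bcat2 to Bcat1 was lower in siPRMT1 cells at day 1, at 1.59, 1.40 and 1.38, and at day 3, at 18.1, 18.2 and 17.3. Neither day showed an overlap, with log2 differences of -1.32 and -0.61 and the same exact permutation p of 0.1 at both. Mccc1 to Mccc2 was higher by 0.13 at day 3 without overlap (exact permutation p = 0.1), with 0.839 to 0.911 in siPRMT1 against 0.730 to 0.836 in siCtrl libraries. The other 7 differences between the siRNAs overlapped, from -0.27 to near 0 on the log2 scale (exact permutation p from 0.3 to 1). Ppm1k to Bckdk overlapped in all 3 comparisons. The level of Bcat1 in these ratios carries the uncertainty of its second row.

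Genes whose profile was most like the mean of the 10 genes over the 12 libraries were sought among 1401 genes. These averaged 10 CPM or more and spanned at least the range of that mean, 1.35 on the log2 scale. CPM are counts scaled to the library's total after TMM normalization. The measure was the root mean square difference of the centred log2 CPM. The nearest were Rpia, a pentose phosphate isomerase (0.06), Pex19, a peroxisome assembly factor (0.06), Etv3, a transcription factor of the ETS family (0.07), a second row of Bcl2l13, a mitochondrial protein of the BCL2 family, on another sequence of the assembly (0.07) and Gnpat, a peroxisomal enzyme of ether lipid synthesis (0.08). Among the 10 genes themselves Mccc1 was nearest to their mean (0.075) and Auh farthest (0.81), with Dbt (0.52), Bcat2 (0.44) and Bckdhb (0.32) next. All 5 outside genes rose between the days in siCtrl cells, by 1.04 to 1.25 on the log2 scale. After the knockdown at day 3, 3 of the 5 passed with a lower level, Gnpat (-0.42 ± 0.07, adjusted p = 0.000433), the second Bcl2l13 row (-0.30 ± 0.07, adjusted p = 0.00971) and Etv3 (-0.30 ± 0.07, adjusted p = 0.0127), while Rpia gave -0.13 ± 0.07 (adjusted p = 0.246) and Pex19 -0.16 ± 0.07 (adjusted p = 0.141). Over all genes tested 8.94% passed with a lower level at day 3. At day 1 0 of the 5 passed, and in the interaction 1 did (Gnpat, -0.33 ± 0.09, adjusted p = 0.034). These libraries also chose the 5 genes, so their values are a description.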

How the data were processed

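Poly(A) RNA of 3T3-L1 cells was sequenced in 12 libraries, 3 for each siRNA and day. The authors cleaned the reads (cutadapt 1.11) and aligned these to mouse transcripts (HISAT2 2.1.0), and the submitters' processing notes also name RSEM (1.2.6), without its role, and the build mm10. The deposited counts are whole numbers per gene without normalization, and the counting tool and strand setting were not given in the sources used here. The deposited FPKM scale each count to the gene length given in the table and the total of the library, as checked by recomputing them (largest difference 0.005). Names with a number suffix (0.612% of counts) were kept as separate genes.

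Counts were tested over all genes with edgeR (4.0.16, R 4.3.3) by the quasi-likelihood test, TMM normalization and filterByExpr, with Benjamini-Hochberg adjustment, and the SE was derived from the F statistic and the log2 fold change. Ratios were tested with a two-sided exact permutation test (scipy). The median log2 fold changes and the shares of all genes called are given as background, with no set test. Genes outside the 10 are named if called after the knockdown, if among the 3 largest changes of their list in the course of siCtrl cells, or if part of a ratio, and Ogdh and the markers were named after their values were seen. Comparisons of the days and of the siRNAs share libraries. The members and lists were chosen with earlier results of these data known. Alternatives were DESeq2 (1.42.0), RLE normalization, no filter or 10 counts in every library, a replicate block, no fold threshold, voom with library weights (limma 3.58.1), all 12 libraries in 1 model, each library left out and, chosen after seeing the data, listed copies summed. The test was tested on simulated data with changes larger than the knockdown effects of the 10 genes. How often it finds changes as small as theirs was not measured.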

Additional observations from a re-analysis of the deposited data

Results flagged for a closer look

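The effect of the knockdown differed between the days, by the interaction over all 12 libraries, in 3 of the 29 genes listed beside the 10 and in 0 of the 10 themselves, where 8.24% of all genes tested were called. For Bcat1 the day 3 effect less the day 1 effect was -0.84 ± 0.13 on the log2 scale (SE, edgeR adjusted p = 0.000765), with siPRMT1 above siCtrl in all libraries of day 1 and an overlap at day 3, and it was -0.70 ± 0.11 with both listed rows summed. For Klf15 the difference was -1.34 ± 0.39 (adjusted p = 0.0369), where the day 1 libraries held 4 to 16 counts, and it passed in 11 of 18 alternatives, with adjusted p up to 0.221. For Gldc, a glycine cleavage subunit, it was 0.59 ± 0.18 (adjusted p = 0.049), and it was called in 4 of 19 alternatives, with adjusted p up to 0.142. Groups of 3 libraries are too small for a test of single outlying libraries.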

How the results depend on the processing

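The 9 genes that rose in the course were called higher in every alternative, in both siRNA groups. The 1 gene called lower in siCtrl cells (Auh) was lost with library weights, which left 0, and in siPRMT1 cells, where 0 were called lower, 1 was with library weights and 1 with no fold threshold. With a library left out, 0 to 1 genes were called lower in siCtrl cells, with 0 without siCtrl day 1 replicate 3. In the knockdown at day 3, 4 genes were called lower with no fold threshold and 0 to 1 with a library left out, the 1 being Dbt without siPRMT1 day 3 replicate 1. Bcat2, Dbt and Ivd passed at any fold under each alternative at day 3, and Hibch in 7 of the 8 that kept all libraries. At day 1 library weights passed 4 genes at any fold (Dbt, Dld, Ivd and Hibch). Calls among all genes at day 1 went from 267 higher and 220 lower to 574 and 399 with library weights and to 504 and 369 without siCtrl day 1 replicate 3, over a range of 61 to 504 and 62 to 369 with any library left out. In the interaction, genes called lower went from 507 to 1005 without siCtrl day 1 replicate 3. With no fold threshold calls were 441 and 599 at day 1 and 1058 and 1255 at day 3. Rescaled by TMM, the summed level of day 1 was 216.2 in siCtrl and 188.8 FPKM in siPRMT1 cells. The causes of these differences were not tested.

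Deviations of same-numbered libraries correlated from -0.18 to 0.23 over the 4 comparisons. Those of differently numbered libraries correlated from -0.28 to 0.23. Whether the replicate numbers mark paired libraries was not tested, with 3 libraries in each group. With the replicate block 7 of the 10 genes passed at any fold at day 3 in place of 4 and 0 were called, and Gldc lost its call in the interaction (adjusted p = 0.051). The block changed no other call among the genes named.

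Signs turned only in values near 0. At day 1 Bckdha became 0.0653 with library weights and ran from -0.19 to 0.0642 with a library left out, and Bckdk became 0.0724 and ran from -0.12 to 0.0629. Auh became -0.00093 with DESeq2, -0.0016 with RLE, -0.0050 without a filter, -0.013 with 10 counts in every library and -0.0314 with 12 libraries in 1 model, and ran from -0.0598 to 0.0949. Pccb ran from -0.19 to 0.0126, Pdhx from -0.46 to 0.11, Ppm1k from -0.21 to 0.0389 and, at day 3, Dld from -0.20 to 0.0216. In the interaction Ivd became 0.0269 and Mccc2 0.0018 without a filter, and Auh -0.0495 with library weights. With a library left out the interaction ran from -0.27 to 0.0583 for Bckdha, -0.0669 to 0.16 for Dld, -0.16 to 0.0344 for Ivd, -0.18 to 0.0534 for Mccc2, -0.0516 to 0.15 for Auh, -0.0391 to 0.0795 for Aldh6a1 and -0.23 to 0.0128 for Pccb. The knockdown differences of ratios at day 1 ran from -0.0734 to 0.0668 for Bckdha to Bckdhb, -0.34 to 0.0505 for Dbt to Bckdha, -0.0651 to 0.0621 for Mccc1 to Mccc2 and -0.27 to 0.11 for Ppm1k to Bckdk, and at day 3 from -0.10 to 0.11 for Bckdha to Bckdhb.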
